A study of Raphidocelis subcapitata with 45 samples.

Results

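Of 7291 genes measured in the freshwater green alga Raphidocelis subcapitata, 91 (1.25%) stood near their control level at 784 µg/L of sertraline hydrochloride and at least 1 log2 unit above it at 1960, 4900, 12249 and 30623 µg/L. A gene was a member when its mean at 784 µg/L lay less than 0.4 from the control mean and its means at the other 4 concentrations each lay at least 1 above it, all on the deposited scale, which was read as log2, so that 1 unit is a doubling. The members were thus selected on their control, 784, 1960, 4900, 12249 and 30623 µg/L means, and differences of these groups from the control are given below as a description. The libraries at 50, 125 and 314 µg/L were not read by the rule. Differences between the 4 high concentrations come from groups that it read, and because any gene under 1 at one of them was dropped, falls among these groups are limited by the rule.

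Sertraline is an antidepressant that blocks serotonin reuptake in animals, and it reaches surface waters through sewage. R. subcapitata is a single-celled alga that divides in suspension and is widely used in toxicity tests. The level of a transcript in a culture is set by its transcription, its decay and which cells are alive to carry it. These bulk libraries cannot tell fewer cells from less RNA per cell.

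The series held sertraline at 8 nominal concentrations (50, 125, 314, 784, 1960, 4900, 12249 and 30623 µg/L) and a solvent control without sertraline, all exposed for 24 h. The cells were taken from a culture in exponential growth, labelled with the supplier name Carolina Biological, and were kept in medium under constant light in sealed deep-well plates. The 41 libraries used comprised 5 each for the control and for 50 to 4900 µg/L, and 3 each for 12249 (A, B and C) and 30623 µg/L (A, C and D). RNA came from pooled homogenates, and nothing in the labels says that the lettered replicates were separate cultures, so p-values rest on library-to-library spread that may be only technical. The table holds identifiers without gene names, no annotation was used here, and the roles of the 91 genes are therefore not described. Only 2 members are named, the one with the largest change at 30623 µg/L and the one with the lowest difference between 30623 and 1960 µg/L.

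The criterion at 1960 µg/L removed the most genes, 6286 of the 6439 near control at 784 µg/L. Of all genes, 2.59% stood at least 1 above control at 1960, 4.84% at 4900, 11.5% at 12249 and 13.9% at 30623 µg/L, and 88.3% lay within 0.4 of the control at 784 µg/L. Of the 6439 genes near control at 784 µg/L, 153 were at least 1 above it at 1960 µg/L. Of these 153, 104 were still at least 1 above control at 4900 µg/L, 100 of the 104 also at 12249 µg/L, and 91 of the 100 also at 30623 µg/L, so 59.5% of the 153 were kept throughout. Taken in this order, the criteria at 4900, 12249 and 30623 µg/L removed 49, 4 and 9 genes, and a gene removed at one could also be under 1 at a later one. Of the 62 that were not kept, 49 were under 1 at 4900, 37 at 12249 and 38 at 30623 µg/L. Among these 62, 10 had a mean below the control at 30623 µg/L.

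The edges of the group were not sharp. The smallest of a member's 4 changes was as low as 1.01, and the nearest gene outside on this criterion reached 1.00. Within 0.1 of that limit there were 21 genes inside and 24 outside. At 784 µg/L the member farthest from control stood at 0.40 and the nearest gene outside at 0.42, and 15 genes failed on this criterion alone. Without single libraries the rule found between 82 and 99 genes, of which 80 to 91 were among the 91.

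The 91 genes were low or moderate in the table before the change. Their control means ran from 1.85 to 6.70 with a median of 3.52, against a median of 4.58 and a highest value of 11.8 over all genes. The lowest control mean over all genes was also 1.85, so the lowest member stood at the bottom of the table. These deposited values are not scaled to transcript length, so they place genes within the table and do not compare amounts of transcript. If the authors' transform pulled weak genes towards their mean, changes of such genes would be understated.

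As a description of what the rule selected, the median change of the 91 genes was 1.70, 1.90, 2.51 and 2.39 at 1960, 4900, 12249 and 30623 µg/L, in that order. On a linear scale these medians are 3.24-fold, 3.72-fold, 5.71-fold and 5.25-fold above the control. The range at each concentration was wide, from 1.01 to 4.19 at 1960, from 1.01 to 4.20 at 4900, from 1.06 to 5.20 at 12249 and from 1.06 to 5.98 at 30623 µg/L. A change of at least 2 was reached by 36 members at 1960, 40 at 4900, 64 at 12249 and 62 at 30623 µg/L. The interval in which the change began, 784 to 1960 µg/L, spans a factor of 2.5 in concentration with no group between them.

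**Figure D1:**
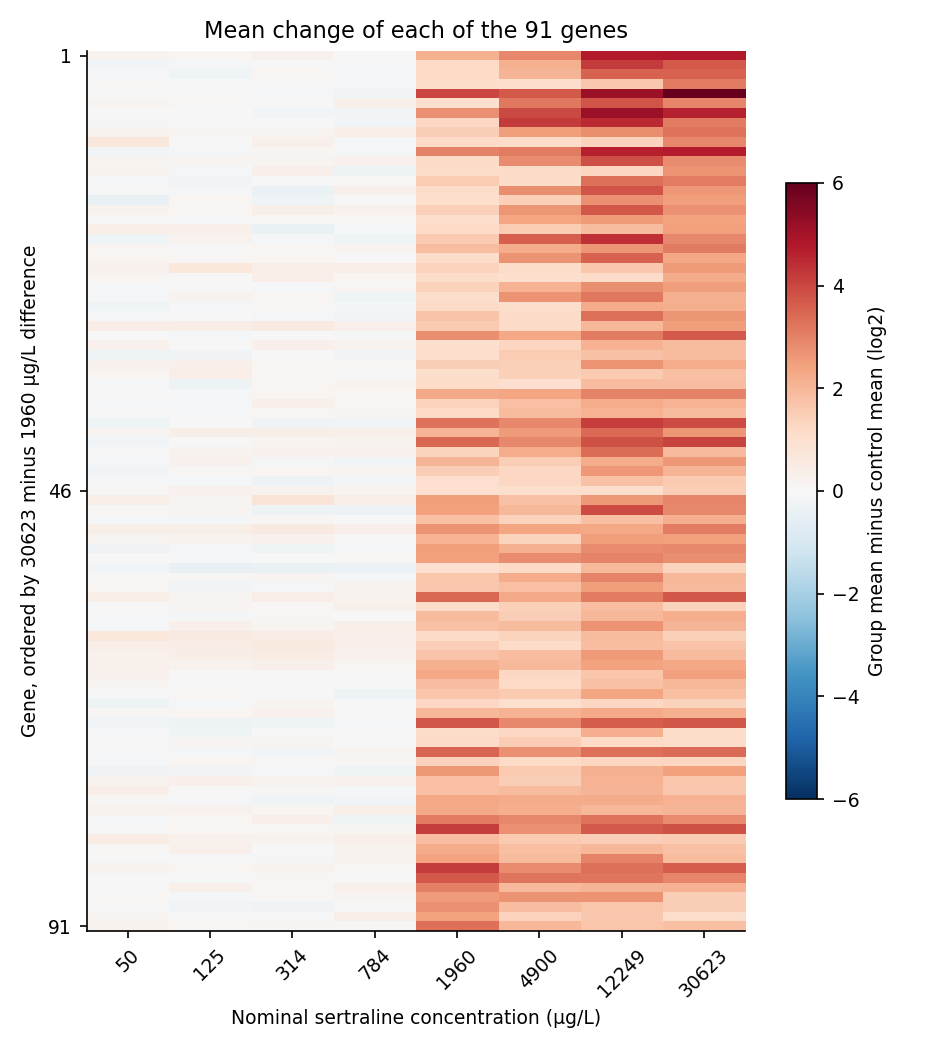
Group mean minus control mean (log2, colour) for each of the 91 genes (rows, ordered from the highest to the lowest difference between 30623 and 1960 µg/L) at the 8 sertraline concentrations (columns). The columns up to 784 µg/L are pale, and the change from 1960 µg/L on lies between 1.01 and 5.98, as the rule requires, with the darkest cells moving from the right side at the top to the 1960 µg/L column near the bottom.

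Every library at 1960 µg/L lay above every control library in 83 of the 91 genes (6.84% of all genes did so). At 4900 µg/L this held for 80 genes, at 12249 for 88 and at 30623 µg/L for 90, where 8.2%, 20.9% and 19.4% of all genes did so. Against the 784 µg/L libraries, every 1960 µg/L library lay higher in 84 members (7.26% of all genes). These counts follow from the rule and carry no further evidence.

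Below 784 µg/L, at concentrations the rule did not read, no member passed the threshold against the control in either direction. The test was limma's moderated test across all 7291 genes with Benjamini-Hochberg adjustment, at an adjusted p of 0.05. Of all genes it called 0% in either direction at 50 and at 125 µg/L, and in the 314 µg/L comparison 0.0274% as higher and 0.699% as lower. So few genes of any kind were called that the absence of calls among the members is not particular to them. At an unadjusted p under 0.05 there were 4 members higher and 0 lower at 50, and 4 higher and 1 lower at 125 µg/L. At 314 µg/L 3 members were higher and 2 lower. The median standard error for a member was 0.23. Over the whole table of 7291 genes, this looser cut passed 52 upward and 39 downward for 50 µg/L. For 125 µg/L it passed 114 upward and 127 downward, and for 314 µg/L 174 upward and 265 downward. The number of members higher at 314 µg/L was 2 when libraries were weighted by their quality and 1 without control replicate A.

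The members' median difference from the control was 0.04 at 50, 0.04 at 125 and 0.08 at 314 µg/L, where the median over all genes was -0.01, 0.00 and 0.01. The mean of a member at 314 µg/L was above its control mean in 64 genes and below it in 27, and 51.1% of all genes lay above. Low control values favour membership, so a small upward offset at 50 to 314 µg/L is built into the choice and was not separated from an effect of sertraline. With the control left out, at 314 µg/L against the mean of 50 and 125 µg/L, no member passed the threshold, while 0.0137% of all genes were higher and 0.384% lower. In that comparison 50 members lay above zero and 41 below, with 1 higher and 1 lower at an unadjusted p under 0.05. Over the whole table of 7291 genes 52.6% lay above zero, and this looser cut passed 92 upward and 214 downward. 1 member was lower without replicate B of 125 µg/L.

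In single libraries the median over the 91 genes stood higher at 1960 µg/L than in any library up to 784 µg/L. The rule chose the genes on group means of these libraries, so this carries no further evidence. Members at least 1 above the control mean numbered from 65 (replicate C) to 86 (replicate D) in the libraries at 1960 µg/L. At 4900 µg/L they numbered from 65 (replicate A) to 90 (replicate D). The median over the 91 genes of the value minus the control mean lay between -0.05 and 0.09 in the 5 control libraries, between -0.04 and 0.07 at 50, between -0.07 and 0.16 at 125, between 0.07 and 0.13 at 314 and between -0.04 and 0.17 at 784 µg/L. It was 1.55, 1.86, 1.29, 2.41 and 1.72 in replicates A to E at 1960 µg/L. It was 1.30, 1.66, 2.05, 2.07 and 2.39 in replicates A to E at 4900 µg/L. At 12249 µg/L it was 2.52 in A, 2.32 in B and 2.63 in C, and at 30623 µg/L 2.66 in A, 2.09 in C and 2.35 in D. The 1960 and 4900 µg/L libraries thus covered the same range, and the lowest library of each stood far above every library up to 784 µg/L. The median over all 7291 genes stayed between -0.05 and 0.02 in every library.

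**Figure D2:**
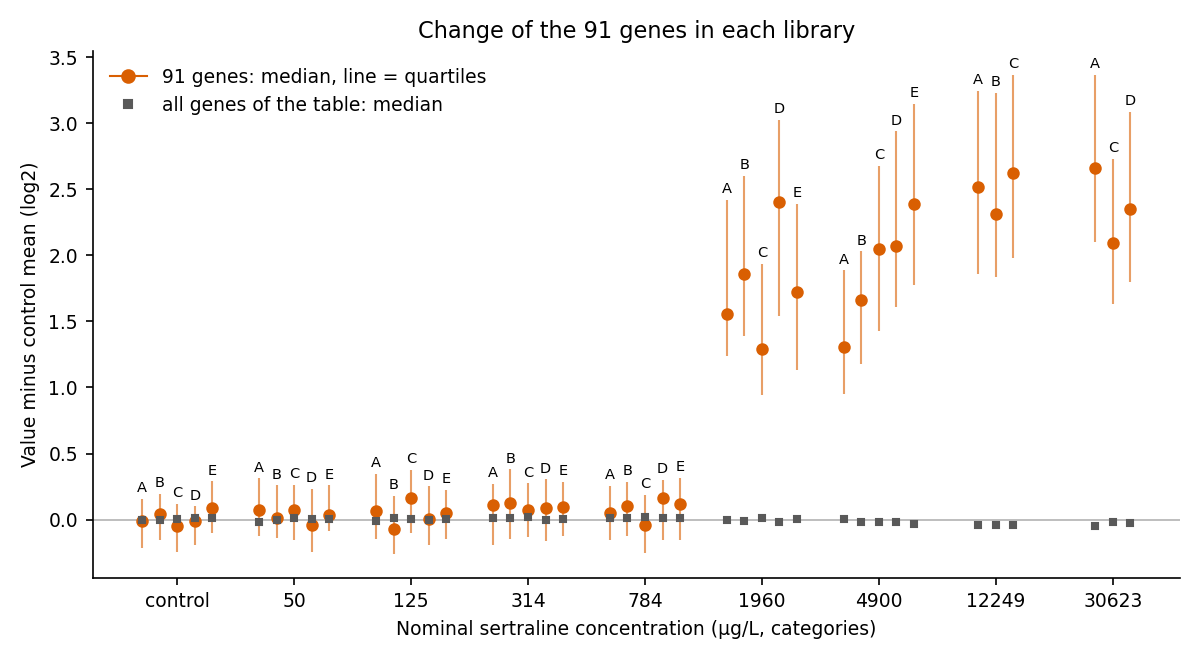
For each library, the median (circle) and quartiles (line) over the 91 genes of the value minus the control mean (log2, vertical axis), with the median over all 7291 genes (square), by nominal concentration, with replicate letters above. Libraries up to 784 µg/L have medians between -0.07 and 0.17, the 1960 and 4900 µg/L libraries spread between 1.29 and 2.41, and those at 12249 and 30623 µg/L lie between 2.09 and 2.66.

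The named member with the largest change at 30623 µg/L, Rsub_11992, was flat up to 784 µg/L. Its deposited values lay between 4.16 and 4.79 in the control libraries, and the 784 µg/L libraries held 4.11 to 4.41. At 1960 µg/L they were 8.52, 8.48, 7.71, 8.97 and 8.45 in replicates A to E, a mean of 8.42 ± 0.45 (SD, n = 5). All 5 lay far above the control libraries, with C lowest. At 4900 µg/L they were 7.46 and 7.25 in A and B but 8.49, 8.51 and 8.73 in C, D and E. At 12249 µg/L they were 9.42, 9.22 and 10.2 in A, B and C, and at 30623 µg/L 10.9, 9.57 and 10.7 in A, C and D. The level at 30623 µg/L was 63.1-fold that of the control, the highest change at this concentration among all genes.

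At 4900 against 1960 µg/L Rsub_11992 did not pass the threshold, with a log2 difference of -0.34 ± 0.21 (SE). The gene stood higher by 1.52 ± 0.24 (SE) at 12249 against 4900 µg/L, and every 12249 µg/L library lay above every 4900 µg/L library. The further difference at 30623 against 12249 µg/L was 0.78 ± 0.27 (SE), and the libraries of the groups overlapped. This gene was named for its 30623 µg/L mean, and the rule read all of these groups. Its differences between high concentrations are therefore a description, and no p is given for them.

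The second named member, Rsub_02735, had its highest values at 1960 µg/L. It stood between 2.10 and 2.71 in the control libraries, and the 784 µg/L libraries held 2.47 to 2.80. At 1960 µg/L its values were 5.91, 6.03, 5.74, 5.71 and 5.48 in replicates A to E, the ninth highest change at this concentration among all genes. At 4900 µg/L they were 4.39, 4.86, 4.31, 4.49 and 4.34, all below the lowest 1960 µg/L library. It was lower at 4900 than at 1960 µg/L by a log2 difference of -1.30 ± 0.24 (SE), or 2.46-fold. The gene was named for its lowest difference between 30623 and 1960 µg/L, which favours a high 1960 µg/L mean, so its differences between high concentrations are a description and no p is given for them.

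The 30623 and 12249 µg/L libraries of Rsub_02735 overlapped. Its values were 3.63, 3.91 and 5.31 in A, C and D at 30623 µg/L, where D stood apart from the others, and 4.32, 3.71 and 4.38 in A, B and C at 12249 µg/L. At 30623 against 12249 µg/L the log2 difference was 0.15 ± 0.30 (SE). It was -0.37 without replicate D of 30623 µg/L and -0.07 without replicate B of 12249 µg/L. The difference at 30623 against 1960 µg/L was -1.49 ± 0.27 (SE).

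**Figure D3:**
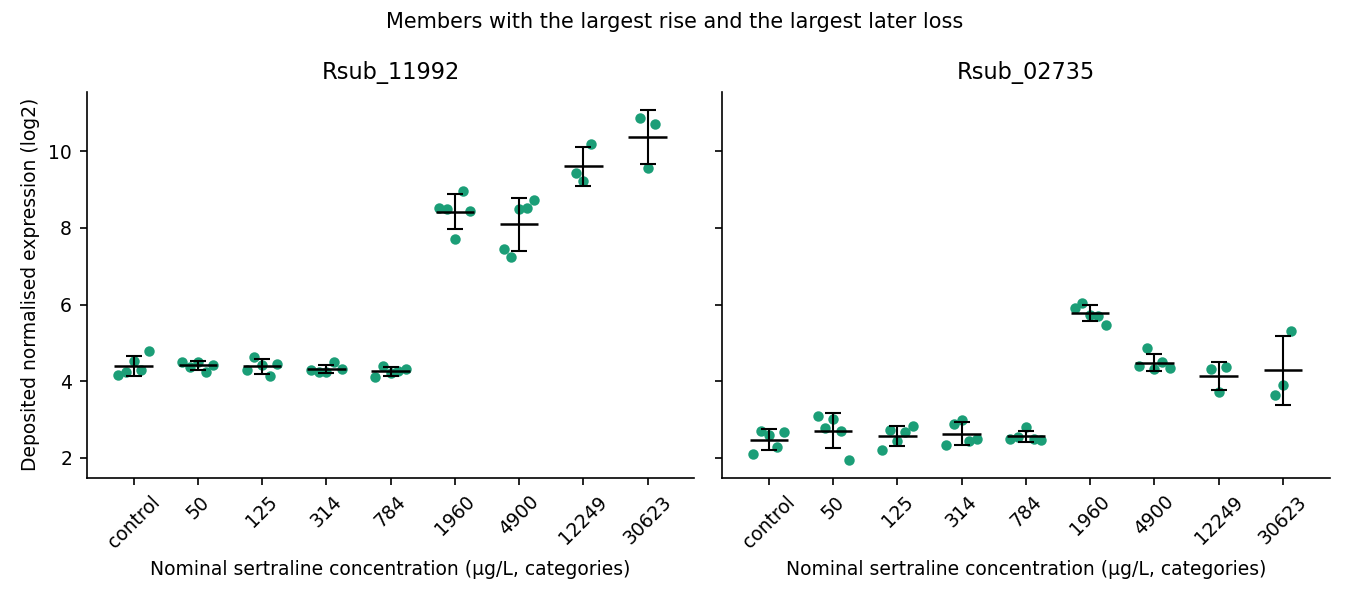
Deposited normalised expression (log2, vertical axis) of Rsub_11992 (left) and Rsub_02735 (right) in each library (points), with group mean and SD (bars), by nominal concentration. Rsub_11992 has a mean of 10.4 at 30623 and 8.42 at 1960 µg/L, whereas Rsub_02735 has 4.28 at 30623 µg/L and its highest mean, 5.77, at 1960 µg/L.

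Once switched on, the 91 genes did not share one course. All 4 high concentrations had been required to lie at least 1 above control, so genes that fell under this limit, such as the 49 of 153 that did so at 4900 µg/L, could not be among the members that were lower. The counts of calls between high concentrations therefore describe the selected genes, and the shares of all genes beside them, which were not selected in this way, are no measure of what is particular to the members. At 4900 against 1960 µg/L, 17 members were higher and 14 lower in limma's test (9.64% and 11.9% of all genes), and 60 did not pass. With libraries weighted by their quality the counts were 18 higher and 9 lower. The differences of the 91 ran from -1.41 to 2.96 with a median of -0.06, and the median over all genes was -0.03. Every 4900 µg/L library lay above every 1960 µg/L library in 11 members and below in 5, where 3.95% and 4.9% of all genes did so.

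At 12249 against 4900 µg/L, 42 members were higher and 0 lower in limma's test, where 11.7% and 9.67% of all genes were called. The absence of falls is in part fixed by the rule, since a member near 1 at 4900 µg/L, where the lowest change was 1.01, could not fall and remain a member. Of the 91 differences 83 were above zero, and 49.9% of those of all genes. The median over the members was 0.59, a 1.50-fold change, and over all genes 0.00. At an unadjusted p under 0.05 there were 50 members higher and 0 lower. This looser cut passed 1263 upward and 1109 downward over the whole table of 7291 genes. Every 12249 µg/L library lay above every 4900 µg/L library in 24 members and below in 0 (8.79% and 6.09% of all genes).

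The number higher at 12249 than at 4900 µg/L depended on the libraries and weights. It was 21 without replicate C of 12249 µg/L, 26 without replicate A of 4900 µg/L, 17 when libraries were weighted by their quality and 17 with only these groups in the fit, and 0 members were lower in each of these fits. All-gene calls fell too, to 404 higher without replicate C of 12249 µg/L, 355 with weights and 284 with only these groups, from 852 as reported.

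At 30623 against 12249 µg/L, 7 members were higher and 14 lower (12.9% and 15.7% of all genes), with a median difference of -0.13 that turned to 0.04 under quantile scaling. The counts were then 14 higher and 9 lower. Without replicate D of 30623 µg/L they were 3 and 6. 23 members were lower without replicate A of 30623 µg/L and 9 without replicate C, and 2 were higher without replicate A of 12249 µg/L. With only these groups in the fit there were 2 higher and 3 lower, and the number higher was 4 with library weights. The median and the balance of calls in this step thus depended on the scaling and on single libraries, and falls were limited by the rule here too.

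Over the whole span, at 30623 against 1960 µg/L, 41 members were higher and 6 lower, with the same limit on falls, where 22.8% and 24.6% of all genes were called. The median member difference was 0.44 and the median over all genes 0.01. Every 30623 µg/L library lay above every 1960 µg/L library in 30 members and below in 4 (13.6% and 16.6% of all genes). The 41 members that were higher had a median change from control of 2.69 at 30623 µg/L and 1.24 at 1960 µg/L, whereas the 6 that were lower had 1.64 at 30623 and 2.88 at 1960 µg/L. The 44 not called had 2.03 at 30623 and 1.88 at 1960 µg/L. The 1960 µg/L mean enters both the difference and these medians, which are therefore not independent of the call.

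**Figure D4:**
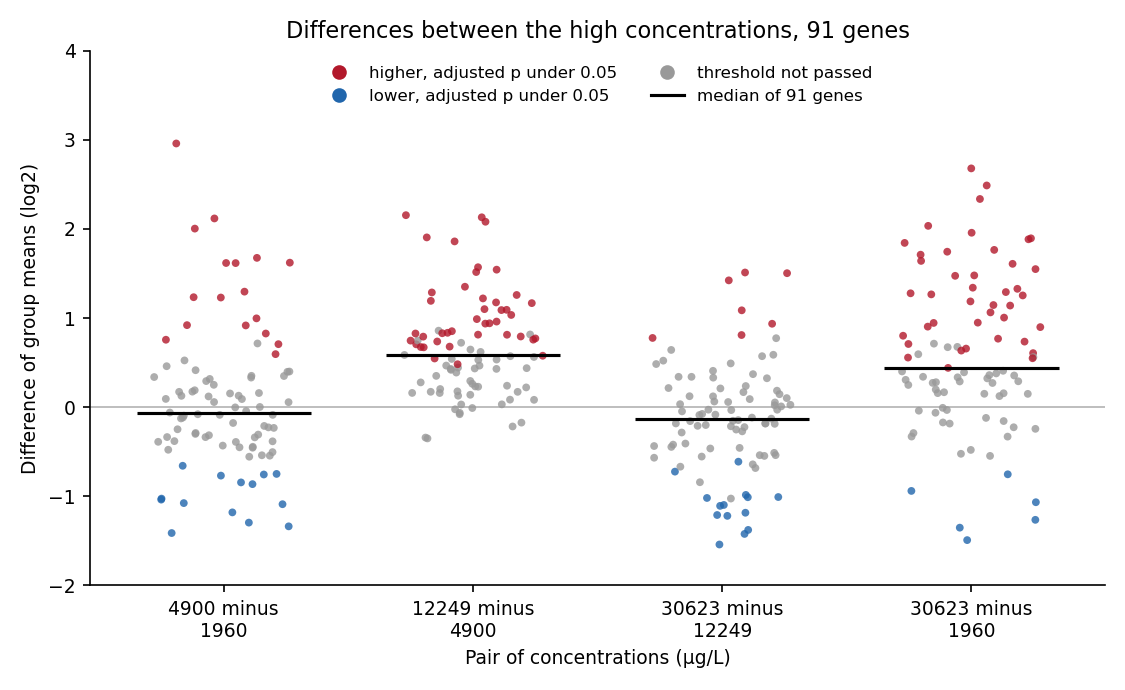
Difference of group means (log2, vertical axis) for each of the 91 genes in 4 comparisons of the high concentrations, coloured by limma's call, with the median as a bar. The 12249 against 4900 µg/L column holds 42 genes called higher and 0 called lower, and the 4900 against 1960 µg/L column 17 called higher and 14 called lower, with falls limited by the rule.

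Combining the 3 consecutive steps, 29 of the 91 genes had no called step above 1960 µg/L, and a step that misses the threshold does not show that a level was constant. A further 20 were called at 12249 against 4900 µg/L alone, as higher. These patterns were not counted over all genes, so they describe the selected genes and are not shown to be particular to them. The highest mean fell at 12249 µg/L in 47 members, at 30623 in 27, at 1960 in 15 and at 4900 µg/L in 2.

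The members were also followed by their call at 4900 against 1960 µg/L. The 17 higher at 4900 than at 1960 µg/L began with a median change from control of 1.24 at 1960 µg/L and had medians of 2.69 (4900), 3.74 (12249) and 2.86 (30623 µg/L). Of these 17, 11 were higher again at 12249 than at 4900 µg/L, and 9 were lower and 0 higher at 30623 than at 12249 µg/L. The 14 lower at 4900 than at 1960 µg/L had medians of 2.88 (1960), 1.90 (4900), 2.32 (12249) and 2.47 (30623 µg/L). Of these 14, 6 were higher at 12249 than at 4900 µg/L, and 0 were lower and 1 higher at 30623 than at 12249 µg/L. Of the 60 not called between 1960 and 4900 µg/L, 25 were higher at 12249 than at 4900 µg/L. These sets were formed from the same libraries under the limit on falls, and differences between them were not tested. The 4900 µg/L mean enters both the call that formed a set and the step to 12249 µg/L, which are therefore not independent. Non-members with the same call were not followed in this way, so these courses are not shown to be particular to the members.

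**Figure D5:**
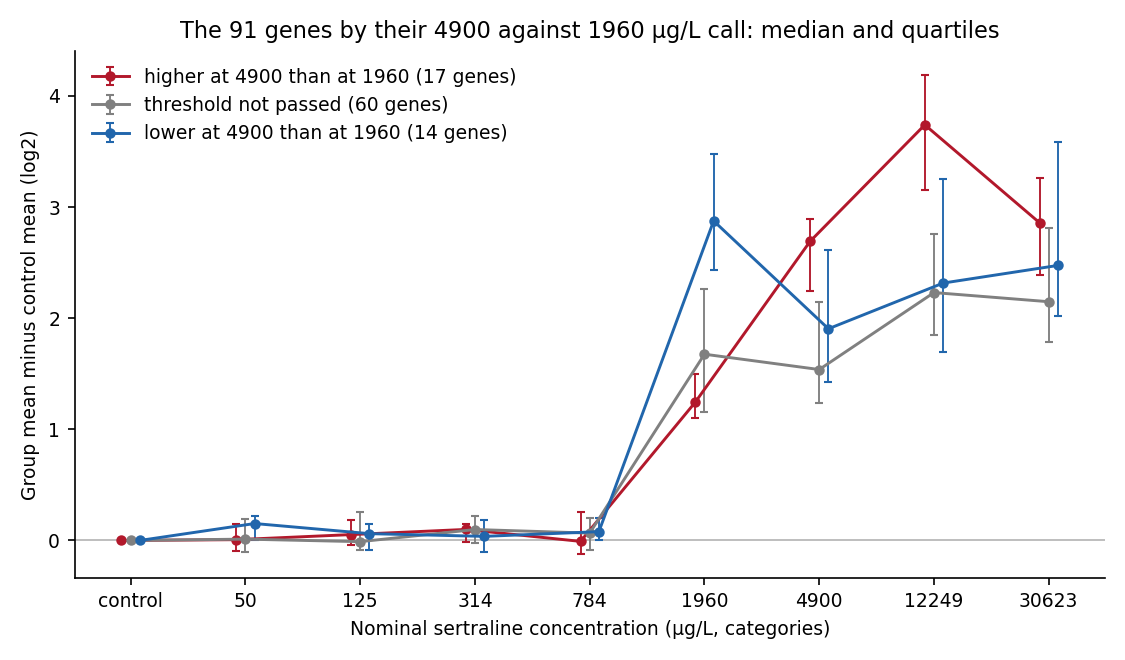
Median and quartiles (bars) of the group mean minus control mean (log2, vertical axis) by nominal concentration for the members called higher (17), not called (60) and called lower (14) at 4900 against 1960 µg/L. The first set climbs to 3.74 at 12249 µg/L and stands at 2.86 at 30623 µg/L, and the last has its highest median, 2.88, at 1960 µg/L.

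The spread between libraries of one group is given as a description, with no test. The median SD of a member within its group was 0.25 at 784, 0.43 at 1960 and 0.53 at 4900 µg/L (n = 5 each), against 0.25, 0.32 and 0.36 over all genes. Among the other genes whose mean lay between the members' quartiles it was 0.31 at 784, 0.29 at 1960 and 0.33 at 4900 µg/L. At 12249 µg/L the members' median SD, 0.33 (n = 3), was near the 0.34 of all genes, and at 30623 µg/L it was 0.48 against 0.42. Among the other genes between the members' quartiles it was 0.32 at 12249 and 0.39 at 30623 µg/L.

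Many members had their highest or lowest value of a group in the same library. The rule read the 1960, 4900 and 30623 µg/L means, so a gene high in one of these libraries passed more easily. It found 83 genes without replicate D of 1960 µg/L and 99 without replicate C. The rankings are therefore a description of the selected genes. At 1960 µg/L replicate D held the highest value of its group in 55 of the 91 genes, and replicate C the lowest in 55, where over all genes these libraries held the highest in 23.0% and the lowest in 19.1%. At 4900 µg/L replicate E was highest in 60 members and replicate A lowest in 58, against 21.1% and 24.9% of all genes. In the 25 libraries up to 784 µg/L no library was highest in more than 27 members or lowest in more than 33. At 30623 µg/L, A was highest in 60 members and C lowest in 55 of the 3 libraries, against 39.7% and 30.04% of all genes.

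After group means were removed, the median correlation between 2 members over the 10 libraries at 1960 and 4900 µg/L was 0.57, and 89.6% of the 4095 pairs were positive. Among the other genes the median was 0.00 and 49.9% of pairs were positive. The members were all chosen to rise at these concentrations, whereas the other genes mix rises and falls. The values of the other genes are therefore no measure of what is particular to the members. Other genes that rise at 1960 µg/L were not examined in this way. Over the 25 libraries up to 784 µg/L the members' median was 0.02 with 52.8% of pairs positive, and over the 6 libraries at 12249 and 30623 µg/L it was 0.30 with 65.3%. The pairs share the same libraries, so these correlations describe the libraries at hand. Read depth is unknown, and its part in this shared scatter was not tested.

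Some members carry consecutive identifiers. The 91 genes included 5 pairs whose numbers differ by 1, which hold 10 of the genes (11.0%). Of 103 neighbouring numbers of members that are in the table, 10 (9.71%) were members, whereas members make up 1.25% of the table. The files do not say whether numbering follows position on a chromosome. Reads from near-identical or overlapping neighbours could be split or shared by the counting, and this was not tested. In the pair with the largest changes, the genes stood at 3.92 and 3.54 in the control and changed by 3.24 and 2.99 at 1960 µg/L and by 3.90 and 4.70 at 30623 µg/L. Their deviations from group means had a correlation of 0.73 over 41 libraries, and the other pairs ranged from 0.06 to 0.57, against a median of 0.30 for all member pairs. In the pair with 0.06, one gene changed by 1.03 and the other by 3.13 at 1960 µg/L, but by 2.93 and 2.83 at 30623 µg/L.

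The nearest comparison set is the 62 genes that were also near control at 784 and on at 1960 µg/L but went under 1 at a higher concentration. The median control level was 3.52 in the 91 genes and 3.67 in the 62. At 314 µg/L, which the rule did not read, the median change was 0.08 in the 91 and 0.04 in the 62. At 1960 µg/L it was 1.70 in the 91 and 1.18 in the 62, and the rule used this concentration in both. No test was made between these sets.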

How the data were processed

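The authors deposited 1 table of normalised log values (log2 was assumed) covering 7291 genes; it holds 41 of the 45 labelled libraries, and the other 4 were not analysed here. Per the labels' protocols, the library kit primes at 3′ ends and adds molecular identifiers. The submitters' processing notes name DESeq2, featureCounts 2.0.6, SAMtools 1.15.1, STAR 2.7.10a, fastp 0.23.2 and bcl2fastq 2.20.0. The genome build, gene filter, transform, settings and use of molecular identifiers are not given in the sources used. Read depth is unknown, so no count model, interval from counts or floor was possible. No 2 columns were copies (highest correlation 0.975). The labels disagree on the solvent content, so none is given.

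The members and tests were chosen with earlier results of these data known. All 41 libraries entered 1 limma fit (3.58.1, R 4.3.3) with a mean per group and a trend of variance with intensity (32 residual and 24.4 prior degrees of freedom), no filter and no pseudocount. Tests were two-sided, adjusted by Benjamini-Hochberg over 7291 genes. Contrasts among the 4 high concentrations use groups that the rule read, and its lower limit restricts falls among members. Named members were the one with the largest change at 30623 µg/L and the one with the lowest difference between 30623 and 1960 µg/L. Lists by product name could not be used, since the table has no names. Alternatives were centring on the median log ratio, quantile scaling, a mean value of at least 5, only the compared groups, limma's array weights, the replicate letter as a block, and leaving out each library. The fit was tested on simulated data. Figures used Python 3.11.15 and matplotlib 3.10.9.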

Additional observations from a re-analysis of the deposited data

Results flagged for a closer look

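Among 21 sets of 5 libraries checked (the 2 named genes and the median over the 91 genes, at each concentration with 5 libraries), 2 held a library remote from the rest, about 1.05 being expected by chance. For Rsub_11992, replicate D of the 314 µg/L group stood at 4.49 and the others between 4.24 and 4.31, and for Rsub_02735, replicate C of the 784 µg/L group stood at 2.80 and the others between 2.47 and 2.55. Neither group enters a difference between high concentrations. The medians over the 91 genes showed no such library.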

How the results depend on the processing

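The rule found 147 genes with a rise of 0.8 in place of 1 and 57 with 1.2. It found 94 with libraries centred (91 shared with the 91 genes), 90 with quantile scaling (84 shared), 83 with group medians (72 shared) and 101 when the 125 µg/L group stood in for the control (74 shared). Without single libraries it found 82 to 99. With centred libraries, every count of members was within 1.5 times the reported one, and 0 members were lower at 12249 than at 4900 µg/L under every alternative run, a count that the rule itself limits.

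Under quantile scaling, 14 members were higher and 9 lower at 30623 than at 12249 µg/L, and 6 of all genes were higher at 314 µg/L than in the control. Only 29 members and 2729 genes had a mean of at least 5, so counts fell by construction there, and the high groups helped those members to pass. With this filter, members higher and lower were 7 and 3 at 4900 against 1960 µg/L, 24 and 0 at 12249 against 4900, 1 and 8 at 30623 against 12249, and 17 and 0 at 30623 against 1960 µg/L. All genes then showed 27 lower at 314 µg/L than in the control, 449 higher and 506 lower at 4900 against 1960, 548 higher at 12249 against 4900, 181 higher at 30623 against 12249 and 499 higher at 30623 against 1960 µg/L.

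With only the compared groups in the fit, 17 members were higher at 12249 than at 4900 µg/L, and for 30623 against 12249 µg/L the counts were 2 higher and 3 lower, and 1 was lower at 314 µg/L than at 50 and 125. For all genes, this fit gave 40 higher and 126 lower at 314 µg/L against control, 10 and 75 against the mean of 50 and 125, 375 and 447 at 4900 against 1960, 284 and 133 at 12249 against 4900, and 102 and 109 at 30623 against 12249 µg/L. These fits have fewer residual degrees of freedom.

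With array weights, 2 members were higher at 314 µg/L than in the control, 1 was lower at 314 than at 50 and 125, 9 were lower at 4900 than at 1960, 17 higher at 12249 than at 4900 and 4 higher at 30623 than at 12249 µg/L. All genes gave 50 higher and 131 lower at 314 against control, 17 and 102 against the mean of 50 and 125, and 355 and 270 at 12249 against 4900 µg/L. Without the groups from 1960 µg/L up, 1 member was higher at 314 µg/L than in the control and 1 lower at 314 than at 50 and 125. All genes gave 1 lower at 125 µg/L, 43 higher and 119 lower at 314 against control, and 7 and 60 against the mean of 50 and 125. The cause of these changes was not tested.

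Leaving out single libraries, members higher numbered 0 to 1 at 314 µg/L against control, 21 to 52 at 12249 against 4900 and 2 to 8 at 30623 against 12249 µg/L. Members lower numbered 0 to 1 at 314 against the mean of 50 and 125 and 6 to 23 at 30623 against 12249 µg/L. Members higher numbered 13 to 20 at 4900 against 1960 and 33 to 45 at 30623 against 1960 µg/L. For all genes the ranges were 0 to 4 higher at 314 against control, 0 to 2 higher and 16 to 53 lower against the mean of 50 and 125, 404 to 963 higher and 388 to 797 lower at 12249 against 4900, and 473 to 1342 higher and 675 to 1602 lower at 30623 against 12249 µg/L. For Rsub_02735 the difference at 30623 against 12249 µg/L was 0.47 without replicate A of 30623 µg/L, -0.37 without replicate D of 30623 µg/L and -0.07 without replicate B of 12249 µg/L.

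With the letter as a replicate block, members higher and lower were 17 and 14 at 4900 against 1960, 47 and 0 at 12249 against 4900, 6 and 16 at 30623 against 12249, and 40 and 6 at 30623 against 1960 µg/L. All genes gave 705 higher and 880 lower at 4900 against 1960, and 872 and 721 at 12249 against 4900 µg/L. They gave 890 and 1107 at 30623 against 12249, and 1663 and 1788 at 30623 against 1960 µg/L. At 314 µg/L against control, 1 of all genes was higher. The letters did not pair the libraries: the mean correlation of same-letter deviations was 0.01, 19 of 149 pairs exceeded 0.1, and 11 of 41 libraries correlated best with their own letter.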
